A study of Mus musculus with 12 samples.

Results

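White adipose tissue (WAT) of triple mutant mice was compared with WAT of ob/ob mice across all genes measured on Affymetrix arrays. The triple mutants were labelled ob/ob/Cidea-/-/Cidec-/-, so both groups lacked the hormone leptin, and they differed by the labelled loss of Cidea and Cidec. All mice were male, of strain C57, 4 months old and fed chow. Each group held 3 arrays, and these 6 arrays were chosen by their titles from the 12 of the series, whose other 6 were brown adipose tissue (BAT) of the same genotypes. The measured members were 21618 genes, each represented by its brightest main probe set, in deposited log2 values. The labels name neither the white depot nor the deleted parts of Cidea and Cidec. Separate animals for the arrays of a group are not stated either, and p-values therefore cover only the spread among these samples, which could be technical.

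White fat stores triglyceride in adipocytes with 1 large lipid droplet each. Cidec (also called Fsp27) in white fat and Cidea in brown fat sit where lipid droplets touch and move lipid into the larger droplet, so that droplets grow. In obese fat, macrophages gather around dying adipocytes, take up their lipid and switch on a lysosomal programme, and some fuse into multinucleated cells. Brown and beige adipocytes, in contrast, hold many small droplets and many mitochondria and oxidise fatty acids to make heat.

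In triple mutant WAT relative to ob/ob WAT, most genes of mitochondrial import (35 of 40) and of respiratory chain assembly (38 of 43) rose, and most genes of lipid-laden macrophages fell (26 of 30). Limma called 7418 of 21618 genes (34.3%) at an adjusted p under 0.05 (two-sided, Benjamini-Hochberg over all genes). Of these, 3809 rose (17.6% of all genes) and 3609 fell (16.7%). A log2 change above 1 was reached by 1038 called genes (4.8%) and one below −1 by 1138 (5.26%). Larger changes were mostly falls. Beyond a log2 change of 3 there were 23 rises and 103 falls, and beyond 4 there were 6 rises and 28 falls. The median log2 change of all genes was 0.04, and the 5th and 95th percentiles were −1.05 and 0.99. The median SD within a group was 0.13 in triple mutant WAT and 0.11 in ob/ob WAT. The 3 arrays of one genotype lay wholly above those of the other for 10083 genes (46.6%), which included 7168 of the called genes.

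**Figure D1:**
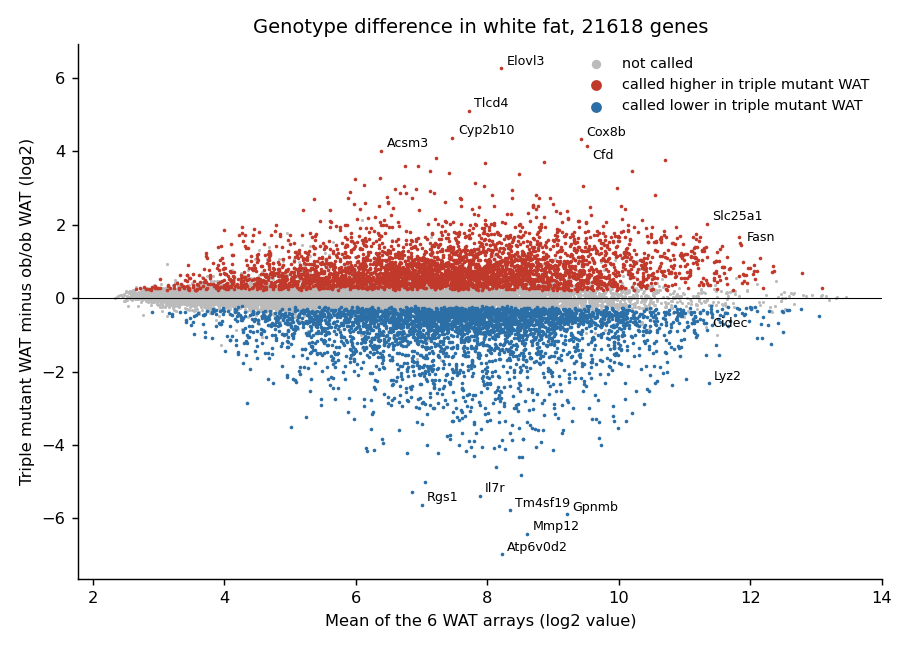
Each point is a gene, with its mean log2 value over the 6 WAT arrays on the x axis and triple mutant WAT minus ob/ob WAT (log2) on the y axis. Grey genes were not called, and the cloud of 344 genes that fell beyond a log2 change of 2 is denser than that of the 120 that rose as far.

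Background on each array was measured by 45 antigenomic control probe sets, which match no mouse sequence. Their highest log2 value was 7.65 to 8.05 in triple mutant WAT and 7.40 to 7.57 in ob/ob WAT, and 21.6% to 27.9% of genes lay above it on the triple mutant arrays, against 29.9% to 32.3% on the ob/ob arrays. Where a gene lay below that control on all 3 arrays of a group, its level there is only bounded. For such a gene the brighter group is given as at least N-fold above the control, and its log2 change is no fold estimate. Where no bound could be given, the gene is marked as dim in both, below the control on all 6 arrays, or as dim in the genotype where it was below, and its log2 change, no fold estimate either, is given for the direction. By this measure 190 genes were above the control on every triple mutant array and below it on every ob/ob array, and 189 of them were called. The reverse held for 825 genes, of which 712 were called. The highest control was higher on every triple mutant array than on any ob/ob array. That favours the count of 825, so the counts of 190 and 825 cannot be compared as rises against falls. Across all genes, arrays correlated at 0.985 to 0.996 within triple mutant WAT, 0.989 to 0.993 within ob/ob WAT and 0.923 to 0.956 between the genotypes.

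The tissue label was checked against marker genes. All 10 adipocyte identity markers, such as Adipoq, Plin1 and Fabp4, lay above the highest control in at least one array of each genotype. Their mean log2 value was 11.62, 11.57 and 11.59 on triple mutant arrays 1 to 3, against 10.03, 10.70 and 11.12 on ob/ob arrays 1 to 3. Array 1 of ob/ob WAT thus stood lowest for adipocyte genes, and it stood highest for lipid-laden macrophage genes (11.05, against 10.86 and 10.56 on the other two). Of the adipocyte markers 8 rose and none fell, though 1 fell without ob/ob array 1. The 14 skeletal muscle markers and the 15 markers of epididymis and pancreas all lay below the highest control in both genotypes, with no call. When the 6 WAT arrays were fitted alone, 2 of the muscle markers were called lower. One epididymis or pancreas marker was called higher without ob/ob array 3, triple mutant array 1 or triple mutant array 3. In tissue RNA, fewer cells of a type and less RNA per cell cannot be told apart.

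**Figure D2:**
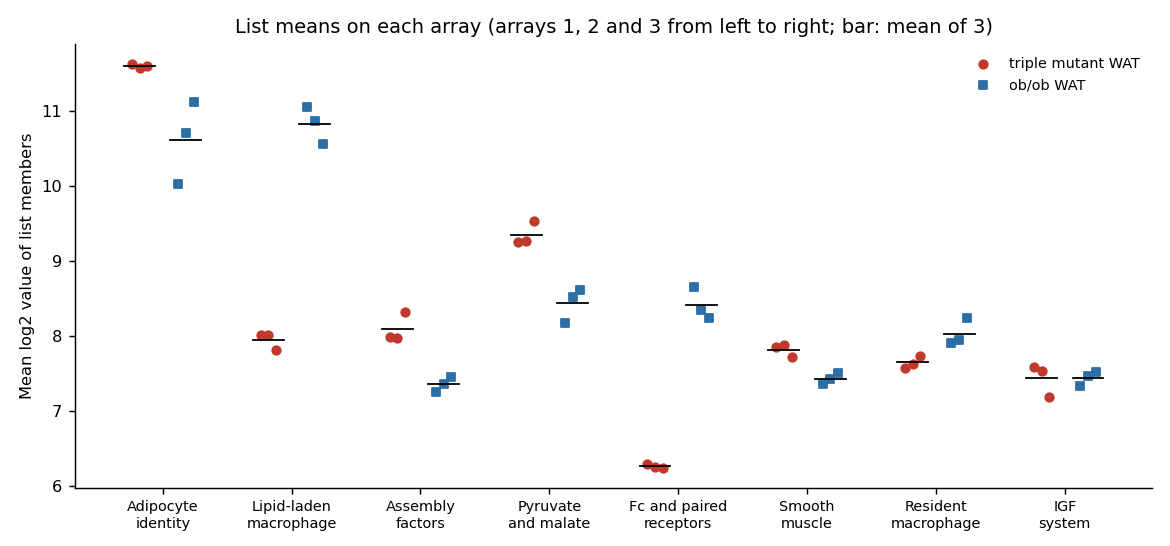
Mean log2 value of the members of 8 gene lists (y axis) on each WAT array, with triple mutant arrays as red circles, ob/ob arrays as blue squares and a bar at the mean of 3. Lipid-laden macrophage genes lie near 8 in the triple mutants and near 11 in ob/ob, and the ob/ob arrays spread widely for adipocyte identity genes.

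The deleted genes themselves were measured first. Cidec (chromosome 6, 113374628 to 113385749, build NCBIM37) had log2 values of 11.25, 11.07 and 11.04 in triple mutant WAT, against 11.25, 11.57 and 11.87 in ob/ob WAT. Its log2 change was −0.44 (SE 0.16, limma adjusted p = 0.0526), which became −0.60 (adjusted p = 0.0139) when ob/ob array 1 was left out. Cidea (chromosome 18, 67503258 to 67527432) had values of 8.42, 8.95 and 10.03 in triple mutant WAT, against 4.86, 5.55 and 5.51 in ob/ob WAT. All 3 triple mutant arrays were higher, at least 3.11-fold (limma adjusted p = 6.53e-06), in tissue labelled as lacking the gene. Cideb, the family member of liver, rose by 1.63 (at least 1.2-fold, limma adjusted p = 0.000759). The position of the probe sets relative to the deletions is not known here, and the signals therefore check neither the genotypes nor the loss of the transcripts.

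Elovl3, Tlcd4, Cox8b and Cfd were among the largest rises. Elovl3, an elongase of very long chain fatty acids in brown fat (chromosome 19, 46206389 to 46210184), had log2 values of 11.43, 11.01 and 11.58 in triple mutant WAT, against 4.85, 5.16 and 5.21 in ob/ob WAT. It was at least 14.3-fold higher (limma adjusted p = 2.66e-07), the largest bound among the 16 rises. Tlcd4 (chromosome 3, 120904926 to 120966234) had 10.27, 10.33 and 10.22 in triple mutant WAT, against 4.68, 5.99 and 4.82 in ob/ob WAT, at least 6.85-fold higher (adjusted p = 6.61e-06). Cox8b, the muscle and brown fat form of a cytochrome c oxidase subunit, had 11.46, 11.44 and 11.86 in triple mutant WAT, against 6.58, 7.29 and 7.92 in ob/ob WAT, a log2 change of 4.33 (SE 0.25, adjusted p = 1.41e-06). Cfd, the complement protease adipsin that adipocytes secrete, had 11.83, 11.65 and 11.26 in triple mutant WAT, against 6.55, 7.65 and 8.13 in ob/ob WAT. Neither of these last genes overlapped between the genotypes, and ob/ob array 1 gave the lowest value of both. The log2 change of Cfd was 4.14 (SE 0.32, adjusted p = 4.83e-06), and 3.69 without that array. In ob/ob WAT, Cox8b lay below the highest control on 2 arrays and Cfd on 1, so both log2 changes rest partly on dim values.

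Other large rises divided among a few functions. Mitochondrial fatty acid use was represented by Cpt1b, which moves long-chain fatty acids into mitochondria (at least 9.33-fold, adjusted p = 2.03e-06), by Acsm3, a medium-chain acyl-CoA synthetase (at least 1.86-fold), and by Cox7a1, another cytochrome c oxidase subunit of muscle and brown fat (at least 6.35-fold). Pck1, which supplies glycerol phosphate for triglyceride, had 11.82, 11.89 and 12.11 in triple mutant WAT, against 7.94, 8.44 and 9.03 in ob/ob WAT, a log2 change of 3.47. Detoxifying enzymes among the 16 largest rises were Cyp2b10, Cyp2e1 and Gsta4. Cyp2e1 had 12.73, 12.44 and 12.56 in triple mutant WAT, against 6.67, 9.96 and 9.81 in ob/ob WAT. Its ob/ob values were widely spread, and the log2 change of 3.77 (SE 0.77, limma adjusted p = 0.00245) was 2.69 without ob/ob array 1. Signalling genes in this set included the melanocortin receptor Mc5r (at least 2.58-fold) and the nuclear receptor Ppara (at least 3.07-fold, adjusted p = 1.48e-05). Mc5r (chromosome 18, 68496851 to 68499377) lies within 5 Mb of Cidea. Sptlc3, a subunit of the enzyme that starts sphingolipid synthesis, rose too (at least 2.08-fold).

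Of the 16 largest falls, 5 were on the list of lipid-laden and multinucleated macrophage genes (Atp6v0d2, Mmp12, Gpnmb, Itgax and Cd84), and 11 were not. Atp6v0d2, which encodes a V-ATPase subunit of osteoclasts and macrophages (chromosome 4, 19803985 to 19849713), had log2 values of 4.36, 5.03 and 4.80 in triple mutant WAT, against 11.83, 11.77 and 11.54 in ob/ob WAT. It was at least 15.1-fold lower in triple mutant WAT (limma adjusted p = 1.62e-06). Mmp12, macrophage elastase (chromosome 9, 7347374 to 7369499), had 5.52, 5.27 and 5.41 in triple mutant WAT, against 11.98, 11.92 and 11.55 in ob/ob WAT, at least 16.2-fold lower (adjusted p = 1.38e-06). Gpnmb, a membrane glycoprotein of lipid-filled macrophages (chromosome 6, 48986624 to 49008107), had 6.14, 6.31 and 6.34 in triple mutant WAT, against 12.47, 12.23 and 11.77 in ob/ob WAT. This fall, at least 20.5-fold (adjusted p = 1.62e-06), has the largest bound of the 16, and all 3 genes were bright on every ob/ob array and below the highest control on every triple mutant array. The same on and off pattern held for the other 13 of the set, with bounds that ran down to at least 2.13-fold for Serpinb9b. They include Tm4sf19 (at least 10.8-fold), the sheddase Adam8 (at least 8.73-fold), the G-protein regulator Rgs1 (at least 4.05-fold), the cytokine receptor Il7r (at least 6.88-fold), the integrin Itgax, known as CD11c (at least 6.22-fold), and Tlr13, a sensor of bacterial ribosomal RNA (at least 7.24-fold). Gpr50, an orphan receptor related to those for melatonin, had 4.23, 4.16 and 4.24 in triple mutant WAT, against 8.96, 9.71 and 9.80 in ob/ob WAT, at least 3.24-fold lower. Its limma adjusted p of 6.82e-08 was the smallest of these genes.

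**Figure D3:**
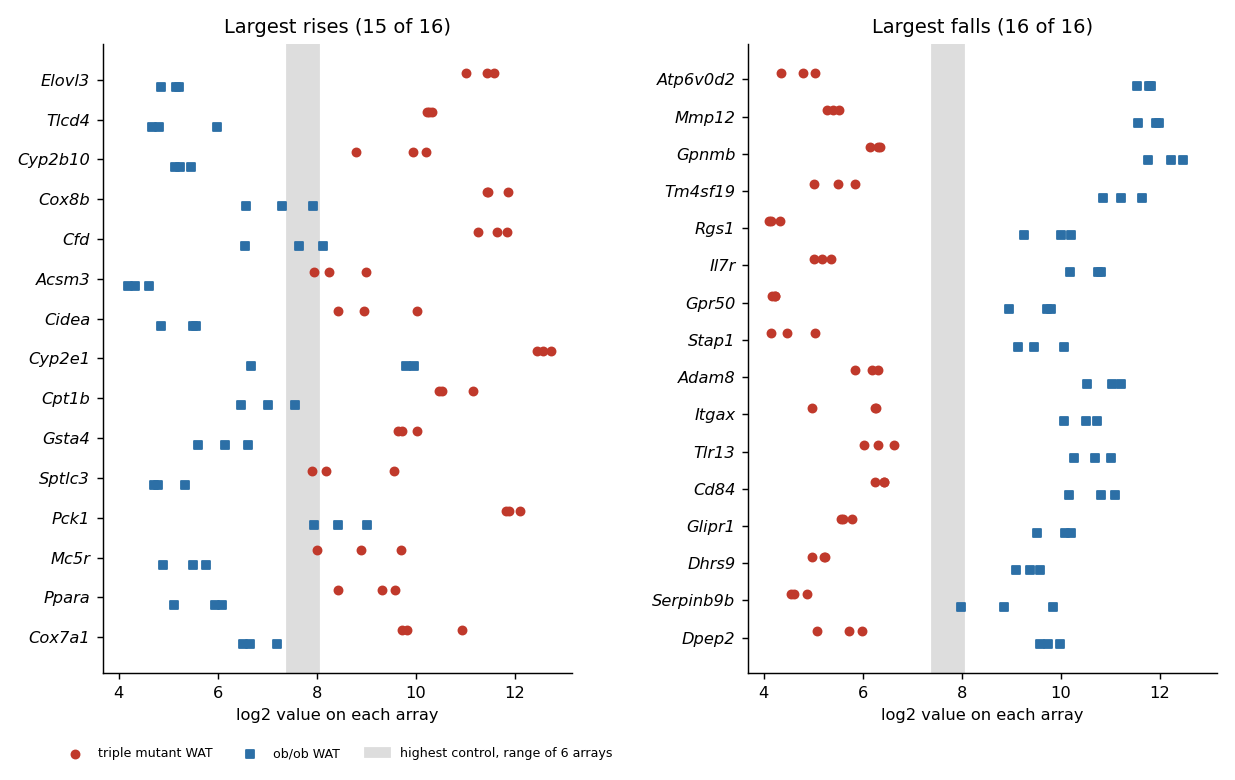
Log2 value on each array (x axis) of 15 of the 16 genes with the largest rises (left) and of the 16 with the largest falls (right), triple mutant WAT as red circles above ob/ob WAT as blue squares. The grey band spans the highest antigenomic control of the 6 arrays, 7.40 to 8.05, and the triple mutant points of all 16 falls lie left of it.

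Of 6506 genes above the highest control on all arrays of at least 1 genotype, 27.1% rose and 33.6% fell. A changed gene could enter this set through its brighter genotype alone, which raises both shares. The highest control was also lower on the ob/ob arrays, so falls entered more easily. These shares therefore do not compare rises with falls. Among the 200 genes with the highest mean over the WAT arrays, 65 rose (32.5%, against 17.6% of all genes) and 57 fell (28.5%, against 16.7%). Lyz2, the lysozyme of macrophages, fell most, with 10.07, 10.21 and 10.33 in triple mutant WAT, against 12.61, 12.68 and 12.28 in ob/ob WAT (log2 change −2.32, limma adjusted p = 6.15e-06). Slc25a1, which exports citrate from mitochondria for fatty acid synthesis, rose most, with 12.38, 12.38 and 12.31 in triple mutant WAT, against 10.04, 10.25 and 10.68 in ob/ob WAT (log2 change 2.03, adjusted p = 1.17e-05). Fatty acid synthase, Fasn, had 12.61, 12.54 and 12.62 in triple mutant WAT, against 10.35, 11.29 and 11.76 in ob/ob WAT. For these abundant genes too the groups did not overlap, and ob/ob array 1 held the lowest ob/ob value of Slc25a1 and Fasn. Agpat2, a triglyceride synthesis enzyme, rose by 1.67, the adipocyte hormone resistin, Retn, by 1.52 and the oxidation enzyme Hadh by 1.41. Without ob/ob array 1 the value of Retn was 1.01 and that of Fasn 1.07, against 1.46 with it. The cathepsin Ctsl (−1.56) and the tropomyosin Tpm4 (−1.54) fell. Whether the Tpm4 probe set, at 22104462 to 22105209 on chromosome 17, reads a copy of the gene was not tested.

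Promoter sequences were set beside these changes. RefSeq (build GRCm38.p6) gave a promoter for 16066 of the tested genes, as 250 bases before and 50 after the start. The letters GAGGAAGT are a form of the site that ETS factors such as PU.1 (Spi1) bind. On either strand, they stood in 73 of 861 promoters of genes called with a log2 change below −1 (8.48%). They stood in 9 of 801 promoters of genes called above 1 (1.12%) and in 464 of the 16066 (2.89%). The NRF1 motif core CGCATGCG, of a factor for nuclear genes of mitochondria, stood in 31 of 801 promoters of these rises (3.87%), 20 of 861 of these falls (2.32%) and 435 of the 16066 (2.71%). The motif of PPAR dimers, a pair of AGGNCA copies in the same direction with 1 base between them, was found in 1 promoter of the rises (0.125%) and 7 of the falls (0.813%), against 0.373% of the 16066. The ERR motif TCAAGGTCA stood in 4 promoters of each (0.499% of the rises and 0.465% of the falls, against 0.293%), and the E-box TCACGTGA in 5 (0.624%) and 16 (1.86%), against 1.34%. Among the named genes called below −1, 5 of 70 promoters held the ETS letters. These are letter matches and not binding sites, and no overlap between motifs was removed. The motifs were chosen with the changes known, and the NRF1 core was shortened by 2 letters after a first count, in which the rises also held it most often and the falls least often. Of the 21 promoters found for the 32 largest changes, that of Ppara held the NRF1 motif, that of Mmp12 the ETS motif and that of Cd84 the ERR motif. To show where the letters lie, the 250 bases upstream of Ppara and Mmp12 are printed with that motif in capitals, followed by 30 bases around the ETS motif of the falling genes Nceh1 and Bcl2a1d. Ppara lies at chr15:85735526-85735775 on the plus strand, with the motif 30 bases before the start, and Mmp12 at chr9:7344147-7344396 on the plus strand, with the motif on the opposite strand 88 bases before the start. The stretch of Nceh1 is chr3:27182920-27182949, plus strand, and that of Bcl2a1d is chr9:88731936-88731965, minus strand.
Ppara: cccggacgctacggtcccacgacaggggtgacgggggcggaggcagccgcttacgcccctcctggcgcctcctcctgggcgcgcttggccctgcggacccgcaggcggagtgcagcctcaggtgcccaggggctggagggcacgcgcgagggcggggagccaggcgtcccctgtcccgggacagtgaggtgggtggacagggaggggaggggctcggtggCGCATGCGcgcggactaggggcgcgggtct
Mmp12: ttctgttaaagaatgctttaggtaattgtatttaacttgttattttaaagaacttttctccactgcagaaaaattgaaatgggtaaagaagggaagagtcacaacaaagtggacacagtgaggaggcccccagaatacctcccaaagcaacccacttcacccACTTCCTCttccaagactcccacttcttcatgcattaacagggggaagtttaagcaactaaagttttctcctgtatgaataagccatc
Nceh1: tccgcgctcccACTTCCTCccgacgcagcc
Bcl2a1d: ctgaatcagaaGAGGAAGTggtgtgttgct

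Gene groups were described with 55 lists, and each count of members should be read against the 17.6% of all genes that rose, the 16.7% that fell and the median log2 change of 0.04. Where a count of 5 or fewer is spelled out by gene, those genes were named after their values were seen. The medians take in members that were dim in both genotypes. The members' changes are shown in the plot of 55 gene lists.

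**Figure D4:**
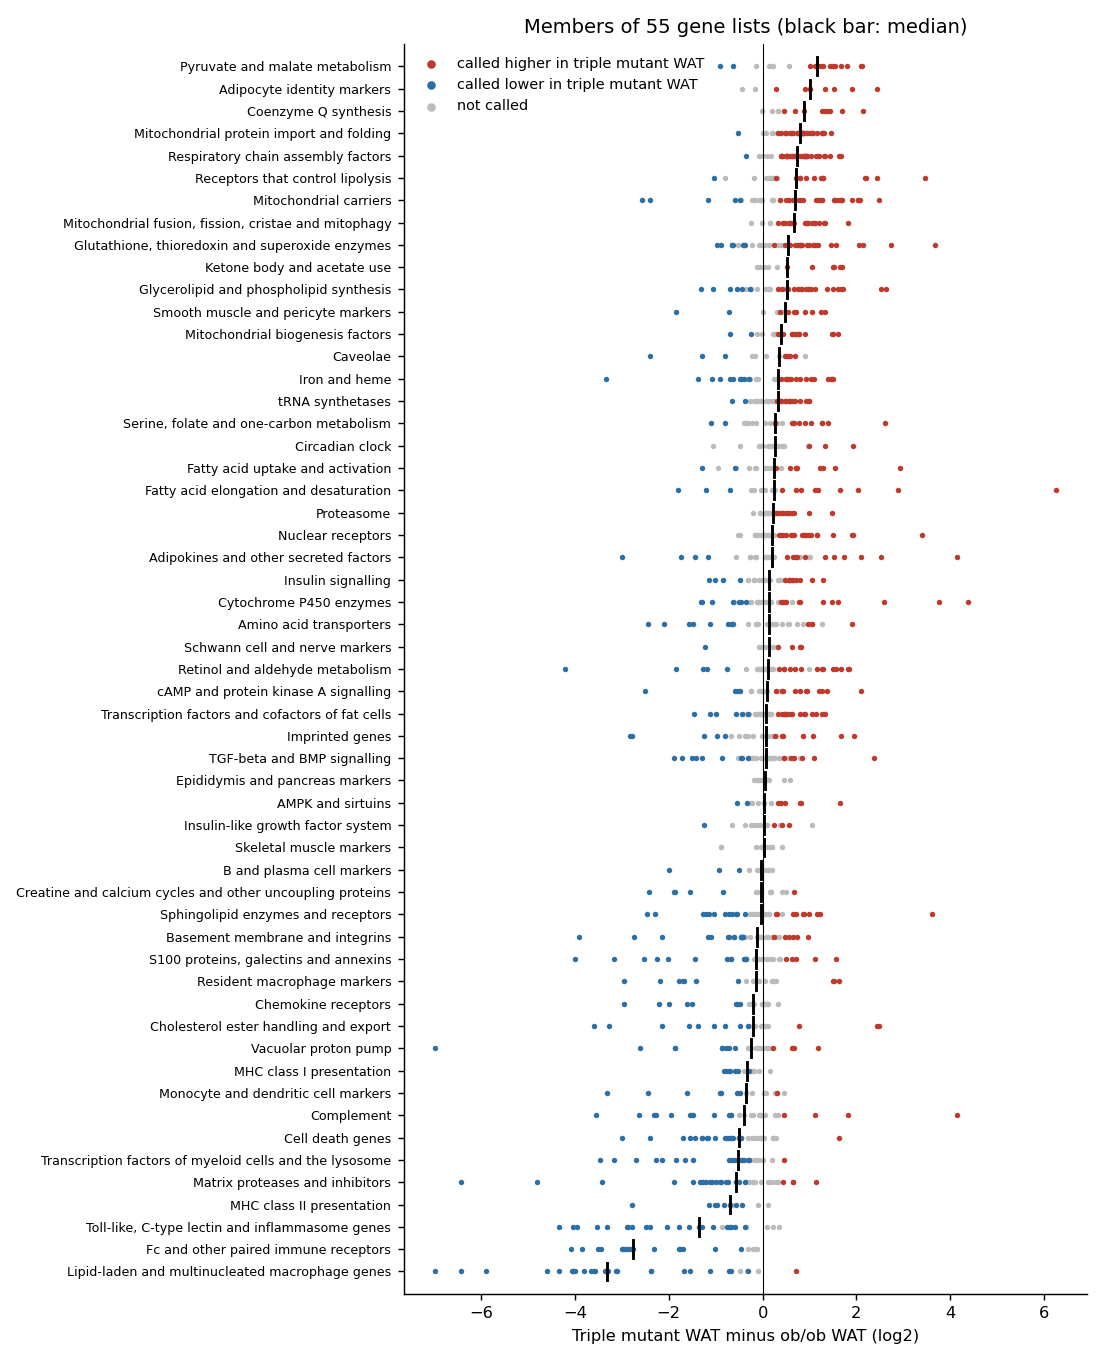
Log2 change, triple mutant WAT minus ob/ob WAT (x axis), of every measured member of 55 gene lists, ordered by the list median (black bar). Pyruvate and malate genes have the highest median at 1.16 and lipid-laden macrophage genes the lowest at −3.31.

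Genes that handle fatty acids in adipocytes rose more often than they fell. Of 22 genes of fatty acid uptake and activation 10 rose and 2 fell (median log2 change 0.25). The binding protein Fabp3 rose (2.93, at least 2.14-fold), as did the acyl-CoA synthetase Slc27a2 (1.55, at least 1.1-fold), whereas the falls were the acyl-CoA synthetases Acsl5 (−1.29) and Acsl4 (−0.60). Cd36, the brightest member and the main fatty acid importer, had a log2 change of −0.17 that did not pass (adjusted p = 0.111), and passed without ob/ob array 3 (−0.24, adjusted p = 0.0349). Elongation and desaturation had 9 of 20 genes higher and 3 lower (median 0.24). Beside Elovl3, the elongases Elovl7 (2.89, dim in both) and Elovl4 (2.03, at least 2.17-fold) rose, while Hacd4 (−1.80, at least 1.82-fold), Elovl1 (−1.20) and Fads1 (−0.70) fell. Scd1, the main desaturase, was at 12.74, 12.81 and 12.05 in triple mutant WAT, against 12.32, 12.61 and 12.61 in ob/ob WAT, with overlapping groups and no call (adjusted p = 0.982). Glycerolipid and phospholipid synthesis had 20 of 37 genes higher and 6 lower (median 0.52). Mogat1 (2.63, at least 1.24-fold), Gpat3 (2.53) and Gpam (1.71), which add fatty acids to glycerol backbones, rose. The 2 falls of the uptake list were 1 without ob/ob array 2 or triple mutant array 1. The adipocyte identity mean was higher in the triple mutants as well, and its part in these rises was not tested.

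Receptors that start or restrain fat breakdown rose more often than they fell. Of 23 such receptors 13 rose and 1 fell (median 0.71). Besides Mc5r, the β3-adrenergic receptor of adipocytes, Adrb3, rose, with 9.92, 9.75 and 10.22 in triple mutant WAT, against 6.24, 7.47 and 8.87 in ob/ob WAT (2.44). The antilipolytic receptors Adora1 for adenosine (2.21) and Ptger3 for prostaglandin E2 (2.18) rose too. Downstream, 11 of 27 genes of cAMP and protein kinase A signalling rose and 4 fell (median 0.09). The kinase subunits Prkaca (1.27) and Prkar2b (0.81) and the mitochondrial anchor Akap1 (1.38, at least 2.2-fold) rose, and the cyclase Adcy7 fell (−2.50, at least 3.03-fold). Insulin signalling had 10 of 29 genes higher and 4 lower (median 0.15). Here Irs1 (1.28, at least 1.36-fold) and Akt2 (1.05), the forms typical of adipocytes, rose. Whether the Akt2 probe set, at 16414923 to 16415984 on chromosome 11, reads a copy of the gene was not tested.

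Genes of mitochondrial import, assembly, coenzyme Q and shape rose more often than they fell. Import and folding had 35 of 40 genes higher and 1 lower (median 0.79), with the protease Clpp (1.46), the presequence peptidase subunit Pmpcb (1.30) and the matrix chaperone Hspa9 (1.15). Hspa9 was at 11.38, 11.48 and 11.68 in triple mutant WAT, against 10.33, 10.37 and 10.38 in ob/ob WAT, with no overlap (limma adjusted p = 1.3e-05). Tomm34 was the member that fell (−0.52). Respiratory chain assembly factors rose in 38 of 43 and fell in 1 (median 0.74), among them the complex I factors Foxred1 (1.67) and Ecsit (1.62, at least 1.17-fold), with Cox20 lower (−0.36). Coenzyme Q synthesis had 9 of 13 genes higher and none lower (median 0.89), led by Coq8b (2.15, at least 1.71-fold) and Coq9 (1.68). Genes of fusion, fission, cristae and mitophagy rose in 20 of 24 (median 0.66), such as the cristae proteins Apoo (1.82) and Micos13 (1.32, at least 1.89-fold). None of these fell, and 1 did without triple mutant array 3. Whether the Apoo probe set, at 108204221 to 108204811 on chromosome 13, reads a copy of the gene was not tested. Biogenesis factors rose in 13 of 22 and fell in 2 (median 0.40), with the coactivator Ppargc1b (1.61, at least 1.48-fold), the nuclear receptor Esrrg (1.499, dim in both) and the matrix protease Lonp1 (1.48) higher, and Pprc1 (−0.68, dim in both) and Nrf1 (−0.25, dim in both) lower. Of these factors 15 were dim in both. The 2 falls were 1 without ob/ob array 1, 2 or 3 or triple mutant array 1 or 3.

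Substrate supply to mitochondria changed in both directions. Pyruvate and malate metabolism had 12 of 19 genes higher and 2 lower (median 1.16). The kinases Pdk2 (2.11) and Pdk4 (1.79), which restrain pyruvate dehydrogenase, rose, and Pdk3 (−0.91, dim in both) and the phosphatase Pdp1 (−0.63) fell. Ldhb, a lactate dehydrogenase subunit, had 9.12, 9.02 and 9.67 in triple mutant WAT, against 5.48, 7.45 and 8.61 in ob/ob WAT. The ob/ob values were spread, and the log2 change of 2.09 (limma adjusted p = 0.0123) was 1.24 without ob/ob array 1. It missed the threshold when the 6 WAT arrays were fitted alone (adjusted p = 0.0549). The Ldhb probe set spans only 22011773 to 22013087 on chromosome 19, and whether it reads a copy of the gene was not tested. Mitochondrial carriers rose in 26 of 42 and fell in 5 (median 0.68). The pyruvate carrier subunit Mpc2 rose (2.48), and the calcium-binding carriers Slc25a24 (−2.56, at least 3.03-fold) and Slc25a13 (−2.39, at least 1.19-fold) fell, as did Slc25a45 (−1.17, at least 1.08-fold), Slc25a30 (−0.58) and Slc25a37 (−0.48). Ketone body and acetate use had 6 of 11 genes higher and none lower (median 0.53), with Acss2 (1.70) and Acat1 (1.66). AMPK and sirtuin genes rose in 6 of 15 and fell in 2 (median 0.04), led by the kinase subunit Prkaa2 (1.66, at least 1.99-fold) and with Sirt1 (−0.55, dim in triple mutant WAT) and Sirt7 (−0.32, dim in both) lower. Those 2 falls were 1 without ob/ob array 1 or triple mutant array 2.

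Genes of the creatine cycle and uncoupling proteins other than Ucp1 fell more often than they rose. Of 15 genes of creatine and calcium cycles and uncoupling proteins, 5 fell and 1 rose (median −0.03). Gatm, which makes the creatine precursor, had 7.06, 7.14 and 6.93 in triple mutant WAT, against 9.61, 9.53 and 9.25 in ob/ob WAT, with no overlap (−2.42, at least 3.17-fold). The creatine importer Slc6a8 (−1.90), the kinase Ckb (−1.55), the synthesis enzyme Gamt (−0.84) and Ucp2 (−1.87) fell with it. Lower Ucp2 and Gatm stood beside lower lipid-laden macrophage genes, and the part of macrophage RNA in these falls was not tested. The single rise, Pm20d1 (0.67, dim in both), was lost without ob/ob array 1 or 2 or triple mutant array 1 or 2, and 2 genes rose without ob/ob array 3.

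Detoxification and retinoid enzymes changed in both directions, more often upwards. Cytochrome P450 genes rose in 12 of 38 and fell in 7 (median 0.15), and 25 were dim in both. Beside Cyp2b10 and Cyp2e1, the near relative Cyp2b9 rose (2.60, dim in both), and cross-hybridisation between Cyp2b9 and Cyp2b10 was not tested. The falls were 4 without ob/ob array 2. Glutathione, thioredoxin and superoxide enzymes rose in 23 of 45 and fell in 8 (median 0.54). The glutathione transferases Gsta4 (at least 4.93-fold), Mgst2 (2.74, at least 2.75-fold) and Gstm7 (2.13) rose, while thioredoxin, Txn1, the brightest member, fell by 0.36. The falls were 5 without ob/ob array 2 or triple mutant array 3. Retinol and aldehyde metabolism rose in 14 of 38 genes and fell in 5 (median 0.11). Dhrs9, a retinol dehydrogenase, fell (at least 2.94-fold), as did Aldh3b1 (−1.86, at least 1.79-fold), and the alcohol dehydrogenase Adh1 (1.66) and the GABA pathway enzyme Aldh5a1 (1.84, at least 1.14-fold) rose.

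Among transcription factors, fewer than 50% of nuclear receptors passed, each of them higher, and most myeloid factors fell. Of 48 nuclear receptors 19 rose and none fell (median 0.21), with 31 of them below the highest control on all 6 arrays. Ppara, which drives fatty acid oxidation genes, had 8.44, 9.33 and 9.59 in triple mutant WAT, against 5.13, 5.94 and 6.09 in ob/ob WAT, with no overlap. Rxrg (1.91, at least 2.66-fold) rose as well, and 1 nuclear receptor fell without ob/ob array 2 or triple mutant array 2. Factors and cofactors of fat cells rose in 15 of 44 and fell in 6 (median 0.08). The lipogenic factors Mlxipl, known as ChREBP (1.33), and Srebf1 (1.27) and the adipocyte factor Cebpa (1.06) rose, and Klf6 fell (−1.46). Myeloid and lysosomal factors fell in 20 of 28 and rose in 1 (median −0.53). Spi1, which encodes PU.1, the master factor of myeloid cells, had 6.83, 7.03 and 6.91 in triple mutant WAT, against 10.63, 10.26 and 10.26 in ob/ob WAT (−3.46, at least 6.01-fold). Irf5 (−2.70, at least 2.29-fold) and the osteoclast factor Mitf (−2.15, at least 3.23-fold) fell too. The 1 rise was lost without ob/ob array 3 or triple mutant array 1 or 3.

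Genes of macrophages in a lipid-laden state mostly fell, and resident macrophage genes divided. Of 30 lipid-laden and multinucleated macrophage genes 26 fell and 1 rose (median −3.31), and their mean log2 value was 8.01, 8.02 and 7.81 on the triple mutant arrays, against 11.05, 10.86 and 10.56 on the ob/ob arrays. The rise was Fabp5 (0.70), a fatty acid binding protein of adipocytes too, and the brightest member, the lysosomal protease Ctsd, fell by 0.66. Among 19 resident macrophage markers 7 fell and 3 rose (median −0.14). Folr2 had 8.16, 8.43 and 8.87 in triple mutant WAT, against 10.78, 10.60 and 10.62 in ob/ob WAT (−2.18), and Vsig4 (−2.96, at least 1.51-fold) and Mrc1 (−1.78) fell as well. The rises were the lectins Cd209f (1.64, at least 1.61-fold) and Cd209d (1.49, dim in both), near relatives that probe sets may not separate, and the reductase Cbr2 (1.53). Cd209f had 7.13, 8.20 and 9.23 in triple mutant WAT, against 6.60, 6.38 and 6.67 in ob/ob WAT, so all 3 triple mutant arrays were higher and differed widely. Monocyte and dendritic cell markers fell in 7 of 17 and rose in 1 (median −0.35), with the integrin Itgam (−3.31, at least 3.74-fold) and the eosinophil-associated ribonuclease Ear2 (−2.45, at least 2.07-fold) lower. Ly6c2, of classical monocytes, had a log2 change of 0.06 (limma adjusted p = 0.787). Its probe set spans 74938588 to 75069492 on chromosome 15 and may not separate near relatives. The rise, Itgae (0.31, dim in both), was lost without ob/ob array 1 or 2 or triple mutant array 2. B and plasma cell markers fell in 3 of 12 (median −0.03), namely Jchain (−1.99, at least 1.05-fold), Cd22 (−0.93, dim in both) and Bank1 (−0.51, dim in both), and 11 of the 12 were below the highest control on all 6 arrays.

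Receptors by which innate immune cells sense their surroundings fell, and none of the 3 lists had a rise in the full set of arrays. Toll-like, C-type lectin and inflammasome genes fell in 21 of 27, and none rose (median −1.35). Tlr13 had 6.64, 6.30 and 6.02 in triple mutant WAT, against 11.01, 10.68 and 10.27 in ob/ob WAT, and Tlr8 (−4.04, at least 5.26-fold), Clec4d (−3.95, at least 1.51-fold) and Ly86 (−2.90), the brightest, fell too. Without ob/ob array 3 or triple mutant array 3 one member rose. Fc and paired immune receptors fell in 17 of 21 and none rose (median −2.77), with Cd200r1 (−4.08, at least 1.32-fold) and the brightest, Laptm5, a lysosomal membrane protein of leukocytes (−2.87). Lilrb4a (−3.84, at least 6.37-fold) and Cd200r4 (−3.50, dim in both) have close copies that the probe sets may not separate. Chemokine receptors fell in 8 of 23, among them Ccr1 (−2.21, dim in both), and Cxcr4 was the brightest (−1.50, at least 1.38-fold). Their median was −0.20, 19 lay below the highest control on all arrays, and the falls were 5 without ob/ob array 1, while 1 receptor rose without triple mutant array 1. The lipid-laden macrophage mean moved the same way as each of these lists, and its part was not tested.

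Antigen presentation and complement genes fell more often than they rose. MHC class II presentation fell in 8 of 13 genes (median −0.70), with the thiol reductase Ifi30 (−2.78), the invariant chain Cd74 (−1.15) and H2-Eb1 (−1.02). Cd74 was at 10.14, 9.97 and 9.46 in triple mutant WAT, against 10.81, 11.02 and 11.18 in ob/ob WAT, with no overlap. MHC class I presentation fell in 7 of 14 (median −0.34), such as H2-M3 (−0.82, dim in both) and Tapbp (−0.71), while B2m, the shared light chain, had a log2 change of −0.08 (adjusted p = 0.513). Complement fell in 12 of 27 genes and rose in 4 (median −0.39). The receptors C3ar1 (−3.55) and C5ar1 (−2.63, at least 2.47-fold) fell. The rises were Cfd, C6 of the membrane attack complex (1.82, at least 1.87-fold), the lectin pathway protease Masp1 (1.12, dim in both) and the inhibitor Cd59a (0.45). C3 itself, the brightest, had a log2 change of −0.24 that did not pass (adjusted p = 0.265).

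Proton pump and cholesterol ester genes fell more often than they rose, beside the fall of the macrophage genes. The vacuolar proton pump fell in 9 of 25 genes and rose in 4 (median −0.24). Besides Atp6v0d2, Tcirg1, the pump subunit of osteoclasts, fell (−2.62), and Atp6ap2 fell (−1.88). The rises were Atp6v1c2 (1.18, dim in both), Atp6v0a4 (0.68, dim in both), Atp6v0a2 (0.62) and Atp6v0e (0.23), and there were 2 without ob/ob array 3 or triple mutant array 1 or 2. Cholesterol ester handling and export fell in 9 of 21 genes and rose in 3 (median −0.20). Nceh1, a cholesterol ester hydrolase, had 7.28, 7.25 and 6.65 in triple mutant WAT, against 10.95, 10.61 and 10.37 in ob/ob WAT (−3.58, at least 7.19-fold), and Soat1, which makes cholesterol esters, fell (−3.28, at least 7.55-fold). The apolipoproteins Apoc2 (2.49, at least 3.09-fold) and Apoc1 (2.43) and the receptor Scarb1 (0.79) rose. Sphingolipid enzymes and receptors rose in 10 of 35 and fell in 12 (median −0.04). Sptlc3 had 8.19, 7.91 and 9.56 in triple mutant WAT, against 4.71, 5.34 and 4.80 in ob/ob WAT, and the ceramidase Acer3 (−2.46, at least 1.62-fold) and the ceramide kinase Cerk (−2.30, at least 2.56-fold) fell.

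Secreted signals of fat were mixed. Adipokines and other secreted factors rose in 11 of 31 and fell in 4 (median 0.20). Angiotensinogen, Agt, had 10.33, 9.77 and 9.76 in triple mutant WAT, against 6.88, 7.76 and 7.66 in ob/ob WAT (2.52). The Wnt antagonist Sfrp5 fell (−3.00, at least 1.84-fold), with 5.62, 5.81 and 5.62 in triple mutant WAT, against 8.35, 8.90 and 8.79 in ob/ob WAT, and Metrnl (−1.73, at least 1-fold), Saa3 (−1.45, dim in both) and Gdf15 (−1.17, dim in both) fell too. Rises in this list were 6 without triple mutant array 1 and 7 without triple mutant array 2. In the insulin-like growth factor system 3 of 17 genes rose and 1 fell (median 0.03), the fall being the clearance receptor Igf2r (−1.24) and the rises Stc1 (0.56, dim in both), Igf2 (0.42, dim in both) and Igfbp1 (0.25, dim in both). The rises were 1 without ob/ob array 1 or 2 or triple mutant array 2, and the falls 2 without triple mutant array 1. Imprinted genes rose in 7 of 23 and fell in 5 (median 0.07). Mest, whose expression follows adipocyte enlargement in mice, had 7.10, 8.45 and 7.87 in triple mutant WAT, against 10.23, 10.68 and 11.01 in ob/ob WAT (−2.83), Nnat fell (−2.79, at least 4.51-fold) and Peg3 rose (1.95). TGF-beta and BMP signalling had 7 of 45 genes higher and 9 lower (median 0.07), with the adipocyte receptor Acvr1c (2.38) higher and Tgfb1 (−1.88, at least 3.34-fold) and Fstl1 (−1.72) lower. Without ob/ob array 3 its rises were 11.

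Matrix protease, basement membrane and S100 and galectin genes fell more often than they rose, and caveola genes did not. Matrix proteases and inhibitors fell in 20 of 35 and rose in 4 (median −0.56), with the inhibitor Timp1 (−3.43, at least 1.9-fold) and the brightest, Timp2 (−1.21), among the falls. The rises, Mmp28 (1.13), Adamts9 (0.66), Adam12 (0.65) and Mmp9 (0.42, dim in both), were 1 without ob/ob array 1 and 2 without ob/ob array 2 or triple mutant array 1. Basement membrane and integrin genes fell in 14 of 37 and rose in 6 (median −0.12), and the leading falls were the leukocyte integrins Itgb2 (−3.91, at least 7.84-fold) and Itga4 (−2.75, at least 2.53-fold). S100 proteins, galectins and annexins fell in 13 of 30 and rose in 5 (median −0.14). Lgals3, galectin-3 of macrophages, had 7.88, 8.10 and 7.18 in triple mutant WAT, against 11.90, 11.64 and 11.64 in ob/ob WAT (−4.01), while Lgals12, the galectin of adipocytes, rose (1.57). Caveola genes rose in 5 of 13 and fell in 3 (median 0.35), with caveolin 1, Cav1, up by 0.48 and Ehd4 (−2.40) lower. Their rises were 3 without ob/ob array 1 or without any one of the triple mutant arrays 1 to 3.

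Vessel wall markers rose more often than they fell. Smooth muscle and pericyte markers rose in 8 of 14 and fell in 2 (median 0.48). The contractile proteins Cnn1 (1.33, dim in both) and Myh11 (1.24, at least 1.5-fold) rose, Synpo2 (−1.84, at least 1.77-fold) and Pdgfrb (−0.71) fell, and Acta2, the brightest, had a log2 change of 0.35 (adjusted p = 0.222). Schwann cell and nerve markers rose in 4 of 15 and fell in 1 (median 0.13), all of them below the highest control on every array. The rises included Cdh19 (0.82, dim in both), S100b (0.62, dim in both) and Gfra3 (0.33, dim in both), and Uchl1 fell (−1.22, dim in both). The rises were 1 without ob/ob array 2 and 2 without triple mutant array 1 or 3.

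Several general cell functions were also counted. Proteasome genes rose in 13 of 34 and none fell (median 0.22), with Psma1 (1.48) first. Transfer RNA synthetases rose in 16 of 35 and fell in 2 (median 0.33), and among the rises were the mitochondrial enzymes Lars2 (0.99, dim in both), Iars2 (0.99) and Vars2 (0.92, dim in both). The falls, the cytosolic Rars (−0.66) and Dars (−0.37), were 1 without ob/ob array 1 or 2 or triple mutant array 1 or 2. One-carbon metabolism rose in 11 of 25 genes and fell in 2 (median 0.27), with the mitochondrial glycine decarboxylase Gldc (2.61, at least 1.23-fold) higher and Mthfd1l (−1.10, dim in both) and Mthfs (−0.79, dim in triple mutant WAT) lower. Amino acid transporters fell in 9 of 32 and rose in 4 (median 0.13), with the cystine importer Slc7a11 lower (−2.10, dim in both) and the adipocyte transporter Slc36a2 higher (1.91). Their rises were 2 without ob/ob array 1. Iron and heme genes rose in 14 of 32 and fell in 10 (median 0.33). The iron-sulfur protein Glrx5 (1.497) and the heme enzyme Alad (1.49) rose, and the macrophage metal transporter Slc11a1 fell (−3.34, at least 8.91-fold), and without ob/ob array 1 the falls were 6. Cell death genes fell in 21 of 34 and rose in 1, Cideb (median −0.50), with the inflammatory caspases Casp1 (−2.41, at least 1.52-fold) and Casp4 (−1.69, dim in triple mutant WAT) and the survival gene Mcl1 (−1.30) lower. Clock genes rose in 3 of 18 (median 0.26), a share below that of all genes, among them Nfil3 (1.33, at least 1.07-fold) and Cry2 (0.99, at least 1.48-fold), and none fell, though 1 did without triple mutant array 1.

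The genotype difference in WAT was set against that in BAT by testing the difference between both. Limma called this difference for 3002 genes (13.9%), more positive in WAT for 1183 and more negative in WAT for 1819. They included 2497 of the 7418 genes called in WAT. Of the first 6 rises, Cox8b differed most between the tissues, with a log2 change of 4.33 in WAT and 0.34 in BAT (difference 3.99, SE 0.36, limma adjusted p = 0.00031). Cfd, with 4.14 in WAT and 1.14 in BAT (adjusted p = 0.0029), also had the larger fitted rise in WAT. In ob/ob mice both genes were already bright in BAT. The ob/ob mean of Cox8b was 12.19 in BAT against 7.26 in WAT, and that of Cfd 10.20 against 7.45. The part of these starting levels was not tested. Tlcd4 had 5.11 in WAT and 2.18 in BAT (adjusted p = 0.0101). Acsm3, with 4.02 in WAT and 2.15 in BAT, passed at an adjusted p of 0.0273, and did not without ob/ob WAT array 1 (0.0598), ob/ob BAT array 2 (0.0557) or 3 (0.0703) or triple mutant BAT array 1 (0.0615) or 2 (0.0639). Elovl3 rose by 6.26 in WAT and 5.05 in BAT, a difference of 1.21 that missed the threshold (SE 0.38, adjusted p = 0.0546). It passed with same-numbered arrays joined across genotypes within each tissue (limma adjusted p = 0.0307) and joined across tissues as a random block (0.0335). It also passed with the filter on dim genes (0.0443) and without ob/ob BAT array 3 (1.52, adjusted p = 0.0185). For Cyp2b10 the difference was 0.92 (SE 0.81, adjusted p = 0.482). Tlcd4, Acsm3, Elovl3 and Cyp2b10 lay below the highest control on all ob/ob WAT arrays, so the tissue in which they rose further is not settled by these values.

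The fitted log2 changes of the first 6 falls were more negative in WAT, but which tissue had the deeper fall cannot be read from them. Their triple mutant means lay below the highest control in both tissues, and in ob/ob BAT the means of Atp6v0d2 (7.89), Tm4sf19 (7.90), Rgs1 (6.62) and Il7r (6.93) were near or below it as well (7.83 to 8.13 on the ob/ob BAT arrays). Atp6v0d2 had a log2 change of −6.98 in WAT and −2.15 in BAT (difference −4.83, SE 0.61, limma adjusted p = 0.00125). Mmp12 was at −6.42 in WAT and −3.15 in BAT, Gpnmb at −5.89 and −2.58, Tm4sf19 at −5.78 and −2.14, and Il7r at −5.39 and −1.84, with adjusted p from 0.00169 to 0.00863 for the difference. Rgs1, at −5.62 in WAT and −2.23 in BAT (adjusted p = 0.0197), missed the threshold without ob/ob WAT array 1 (0.0502) or ob/ob BAT array 3 (0.0525). The count of 3002 genes was 1779 when array 1 of ob/ob WAT was left out, 1851 when array 2 was, and 1837 when ob/ob BAT array 3 was.

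**Figure D5:**
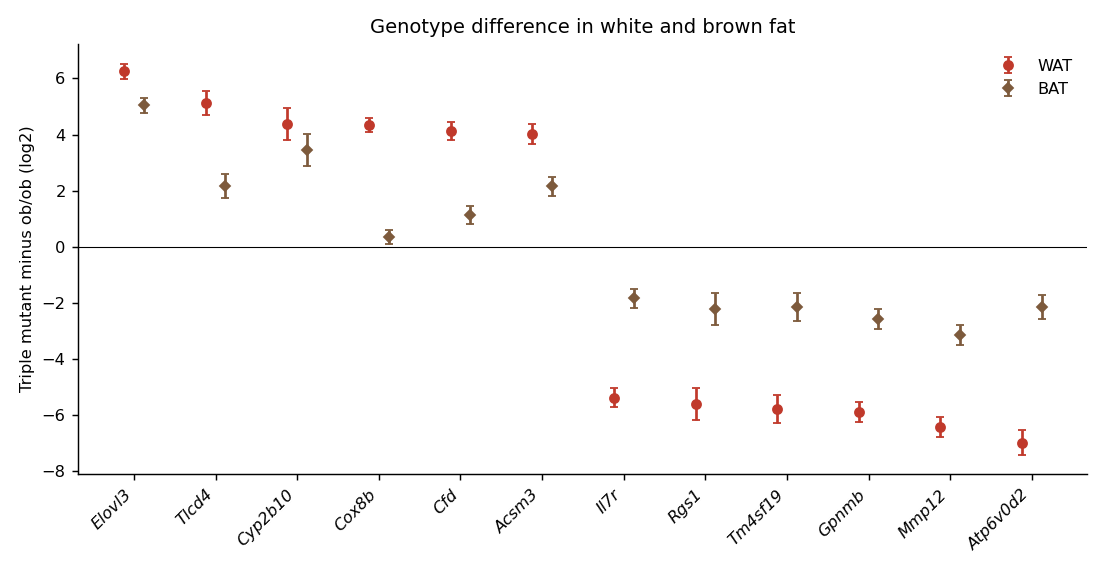
Log2 change, triple mutant minus ob/ob (y axis), of 12 genes in WAT (red circles) and BAT (brown diamonds), with bars of 1 SE from limma. Cox8b is the gene whose WAT and BAT values lie farthest apart among the 6 rises, and Atp6v0d2 among the 6 falls. In all of these genes but Cox8b and Cfd, one genotype lay below the highest control on all its WAT arrays.

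The authors' deposited table for this comparison lists 5945 probe sets, 2783 higher and 3162 lower in triple mutant WAT. Of these, 5038 represent a gene here, 4671 were called here, and 5031 have the same sign. The authors' deposited table gives a smaller absolute log2 change for all 32 genes compared (those of the largest changes and the Cide family that it lists), by 0.06 to 1.04 with a median of 0.39. It has 5.82 for Elovl3 and −6.24 for Atp6v0d2 on the log2 scale, against 6.26 and −6.98 here.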

How the data were processed

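Total RNA was hybridised to Affymetrix arrays, and the deposited log2 values of 35556 probe sets were analysed, made with RMA per the submitters' processing notes, which name limma too, both with no version. Per the file headers, the authors' expression table annotates 28350 main probe sets, with positions on build NCBIM37, and 25004 of these name 1 gene. Another 12 array columns of that table matched no label and were not used. The authors' deposited table of changed genes holds log2 fold changes, which were used, and the same as an unsigned ratio, which was not. For each gene the brightest probe set over 12 arrays was kept, which gave 21618 genes (1833 with several probe sets), of which 18651 matched a current RefSeq symbol, 2222 an older one and 745 none. All genes were tested whatever their signal, and the number of arrays limits the precision.

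Limma 3.58.1 in R 4.3.3 (lmFit, eBayes) was fitted to 12 arrays as 4 group means, with 8 residual and 3.47 prior degrees of freedom, and genes were called at an adjusted p under 0.05. In simulated data of 21618 genes for the WAT comparison, 91% of genes changed by a log2 of 1 and 95% of those changed by 2 were recovered, and 4 of 190 calls were false. Only 100 genes were changed by each amount, with noise independent between genes. These rates therefore do not carry over to the measured data, in which 34.3% of genes were called. Summaries and figures used Python 3.11.15 and matplotlib 3.10.9.

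Named genes were Cidea, Cidec and Cideb; the 16 largest rises and 16 largest falls among called genes whose groups do not overlap and whose higher group has a mean of at least 6; the 8 largest called changes among the 200 most abundant genes; and, in each list, the brightest member and the 3 largest called changes under the same conditions. For the tissue difference the first 6 of each direction were taken. By symbol, the rule leaves out small RNAs, pseudogenes, predicted genes and RIKEN clones, as well as olfactory, vomeronasal and urinary protein families and antigen receptor segments. A probe set that carries a gene's symbol but reads a copy of it would not be left out. Not all genes it gives are named, and results for some genes are not reported here. Genes outside the rule were named after their values were seen. The members and lists were chosen with earlier results of these data known. Arrays with the same number correlated across tissues within a genotype (deviations from group means, r = 0.15 to 0.22), each pair above 0.1. The main fit did not use these pairs, and the random block across tissues did. The replicate block instead joined same-numbered arrays of the genotypes within each tissue. Alternatives were the WAT arrays alone, quantile normalization, a filter on genes with a mean under 5, the mean of probe sets, an intensity trend with a robust prior, blocks, and leaving out each array.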

Additional observations from a re-analysis of the deposited data

Results flagged for a closer look

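The genotype change (triple mutant minus ob/ob) was not alike in WAT and BAT for 3002 genes, by the limma test of the difference. Among the 12 genes followed across tissues, 10 were picked out by that test. In ob/ob mice the mean of Cox8b was 12.19 in BAT and 7.26 in WAT, and that of Cfd 10.20 in BAT and 7.45 in WAT. In ob/ob WAT, Cox8b lay below the highest control on 2 arrays and Cfd on 1. The part of these starting levels in the tissue difference was not tested. The WAT change minus the BAT change was 3.99 for Cox8b and 2.997 for Cfd on the log2 scale, a larger fitted rise in WAT. It was 2.94 for Tlcd4 and 1.87 for Acsm3, which lay below the highest control on all ob/ob WAT arrays, so that the tissue with the larger rise is not settled. It was −4.83 for Atp6v0d2, −3.64 for Tm4sf19, −3.55 for Il7r, −3.39 for Rgs1, −3.31 for Gpnmb and −3.27 for Mmp12. In triple mutants the means of these 6 genes lay below the highest control in both tissues, so the tissue with the deeper fall is not settled either.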

How the results depend on the processing

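Leaving out each array in turn gave 5977 to 7064 called genes in WAT, 2978 to 3692 higher and 2999 to 3468 lower, with 800 to 1113 above a log2 change of 1 and 1028 to 1241 below −1. For the difference between tissues it gave 1779 to 3398. Other settings called 6811 (replicate block) to 7406 (mean of probe sets) in WAT, and 2257 (replicate block) to 4488 (random block across tissues) for the difference. Same-numbered arrays of the genotypes within WAT deviated together at r of −0.05, 0.07 and 0.11. The main fit therefore did not take those numbers as pairs, and only the replicate block did. Of 3138 values of named genes under alternatives, 3059 kept direction and side of the threshold, 45 lost the call, 23 gained one and 11 turned direction. The last were all values never called. With 1 array left out, the value of Scd1 ran from −0.12 to 0.26, of Ly6c2 from −0.039 to 0.21, of Nid1 from −0.22 to 0.066, of Bmpr2 from −0.019 to 0.097 and of Acta1 from −0.034 to 0.21. Cidec passed with 5 of its alternatives, at adjusted p from 0.0139 to 0.0462. Of 1430 list counts, 1339 stayed within 1.5 times. The causes were not tested. Genes near or below the controls are limited by signal over background.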

Other observations

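Several functions outside the lists were put together after the values were seen, so their counts describe these arrays and support nothing. Each count here stands beside the 17.6% of all genes that rose and the 16.7% that fell in WAT. The phagocyte NADPH oxidase, which makes superoxide in macrophages, fell in 6 of 6 genes, with a log2 change of −3.20 for Cybb. Of 12 genes of Syk and Btk signalling, which carries signals from Fc receptors and integrins, 12 fell (11 to 12 when 1 array was left out), with Lat2 at least 3.83-fold and Dock2 at least 5.6-fold lower. Of 7 fibroblast growth factor receptors and Klotho proteins 6 rose (4 to 6 when 1 array was left out), with Klb, the co-receptor for Fgf21, at 2.47. Fgfr1, with a log2 change of −0.23, was not called (limma adjusted p = 0.27). Of 16 carbonic anhydrases 7 rose and 1 fell, with Car2 at least 1.5-fold and Car1 at least 1.28-fold higher. The fall was Car9, the form induced in hypoxia, which lay below the highest control on all 6 arrays.

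In the N-acetylaspartate cycle 4 of 8 genes rose and 1 fell. Nat8l, which makes N-acetylaspartate, was at least 2.18-fold higher, and Aspa, which splits it, had a log2 change of 2.02. Lymphatic endothelial markers rose in 6 of 10 and fell in 1 (5 to 6, and 1 to 2, when 1 array was left out). The rises included Mmrn1, Flt4, the lymphatic VEGF receptor, and Prox1, the lymphatic master factor, all below the highest control on all 6 arrays, while Lyve1 had a log2 change of 0.20 (limma adjusted p = 0.726) and Pdpn −0.57 (adjusted p = 0.0663). Ccl21a was at least 3.91-fold higher, and its near-identical copies may share its probes.

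Genes within 5 Mb of the deleted loci were counted too. Around Cidea 25 of 60 neighbours were called in WAT (41.7%, against 34.3% of all genes) and 18 in BAT (30%, against 17.4%), and 13 in both. Mc5r is one of these neighbours, and the part of its position in its rise was not tested. Around Cidec 29 of 88 were called in WAT (33%) and 12 in BAT (13.6%), and 8 in both.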
